A study of Mus musculus with 2 samples.

Results

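The genes described here are the mouse zinc finger protein genes that carry a name from Zfp500 to Zfp999. They were chosen by name alone: every probe that is not a control and whose gene name in the array files is Zfp followed by 3 digits, the first of them 5 to 9, was taken. This gave 174 gene names with 315 probes, out of 33012 gene names on the array. Of the 174 genes, 162 were measured on both arrays, 2 on a single array and 10 on neither.

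Total RNA came from mouse 46C cells, an embryonic stem cell line with a GFP reporter at the Sox1 locus, at day 5 of neural differentiation. The wild type group was 1 array of unmodified 46C cells, and the other group was 1 array of 46C cells whose label gives the genotype KO-Linc1548, where Linc1548 is a long non-coding RNA from an intergenic gene. Both groups grew as aggregates in the same medium with serum replacement, without any other allele or agent in the labels, which do not say whether the knockout cells are 1 clone. The comparison asks how the loss of this RNA changes gene expression during neural differentiation. With 1 array a group there is no spread between cultures, no test was run, and each difference below describes this pair of arrays. The knockout itself could not be checked, because no probe is named Linc1548 (0 of 56605 probes).

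Many zinc finger proteins in this number range begin with a KRAB box, a short domain that binds the co-repressor Trim28. Trim28 in turn brings in the histone methyltransferase Setdb1 and heterochromatin proteins, and the row of zinc fingers picks the DNA that is silenced, very often a retroviral repeat. These genes multiplied by tandem duplication, so that they lie in clusters of close relatives, and they are much studied in embryonic stem cells, where they keep endogenous retroviruses silent. The number in a name does not decide whether a protein has a KRAB box; no protein sequence was used here, so the share of the 174 that encode one was not computed. Several genes of this range, such as Zfp703, Zfp503, Zfp521 and Zfp536, are known as developmental regulators and not as KRAB proteins.

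A difference is given as log2 of the knockout signal over the wild type signal, after each array was centred on its 75th percentile, and a gene with several probes has the median of its probes' differences. Signals are processed intensities scaled to a common 75th percentile. They are given per probe, and the level of 1 probe cannot be set against that of another. A gene counts as higher or lower where its difference reached 2-fold, which is 1 on the log2 scale. Over 298 probes printed several times, the SD between spots of the same probe was 0.065 (log2) for wild type and 0.070 for the knockout, which gives 0.096 for a difference; this is error within an array only. Each probe of the 174 genes was printed in 1 spot.

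Among the 162 members with a value on each array, 11 (6.79%) reached 2-fold or more above wild type in the knockout, against a background of 11.5% of all 18690 genes measured. At least 2-fold lower were 16 (9.88%), against a background of 8.81%. The other 135 lay within 2-fold. The median difference of the 162 was -0.03, with an interquartile range from -0.51 to 0.31, and the median of all genes was 0.10, from -0.34 to 0.51. Positive and negative differences were nearly balanced, 80 against 82. The middle of the set thus lay close to that of all genes. Past 8-fold, 3 members were higher and 1 was lower. Differences from 3 to 3.5 were found for 1.23% of members and 0.78% of all genes. From 3.5 to 4 the shares were 0.62% and 0.38%, and from -3.5 to -3 they were 0.62% and 0.32%. These 3 bins held 2, 1 and 1 members, so they do not show an excess of members at the extremes. Further out no member was found. All genes still held 0.18% from 4 to 4.5, 0.09% from 4.5 to 5 and 0.18% from -4 to -3.5, with smaller shares below that. The 156 measured Zfp genes with a number below 500 held 12 higher and 14 lower, with a median of -0.13. Under centring on spiked-in control RNA, 9 of the 162 were higher and 33 lower, because that setting moves every difference by -0.37; as shares these are 5.56% and 20.4%, against 7.57% and 15.5% of all genes under the same setting.

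**Figure D1:**
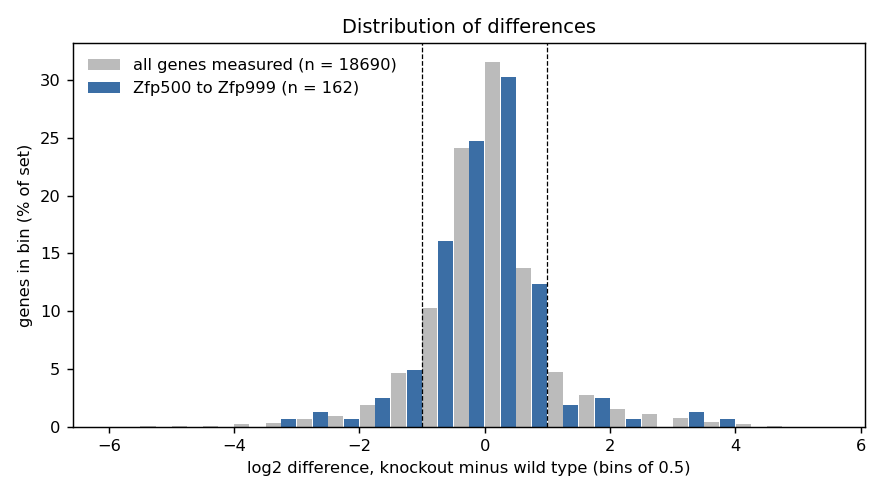
Share of genes (vertical axis, % of the set) in bins of 0.5 of the log2 difference, knockout minus wild type (horizontal axis), for all 18690 measured genes (grey) and the 162 measured Zfp500 to Zfp999 genes (blue); dashed lines mark 2-fold. Both sets are centred near 0, and the blue bars reach from -3.46 to 3.60.

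The cells on the knockout array also differed from wild type in markers of cell state. Of 6 pluripotency markers 5 were at least 2-fold higher on the knockout array (median of the 6, 3.15), as were all 3 epiblast markers (median 2.01). The remaining pluripotency marker, Nanog, had probes at -1.63 and 2.95, so its difference of 0.66 is the value of neither. At least 2-fold lower were 4 of 5 neural progenitor markers (median -2.52) and both neuron markers. Of 7 fibroblast markers 1 was higher and 1 lower, of 4 endoderm markers 1 was higher and 1 lower, and of 3 measured markers of blood and endothelium 1 was higher. In bulk RNA, fewer cells of a type and less RNA per cell cannot be told apart. The part of these marker differences in the values below was not tested.

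Zfp600 had the largest positive difference of the set, 3.60. It lies on chromosome 4 among many related zinc finger genes, one of which is Rex2. Its 4 probes lie at chr4:146162816-146166156 (mm9). In wild type cells their signals were 131, 5840.0, 6535 and 5109, and in the knockout 1362, 69214, 81293 and 63734. All 4 probes were thus higher on the knockout array, by 3.37, 3.57, 3.64 and 3.64. The probes that started from 5840.0 and 6535 share 25 or more bases with probes of Rex2 and Gm13247 and could have bound their RNA. The remaining pair, at 3.37 and 3.64, shares no such run with a probe of another gene. Only probe sequences were compared, so binding of that pair to RNA of relatives was not tested. The probe of the pair at 3.64 went from 5109 to 63734. Nearly the same were the Rex2 probe, from 5007 to 63762, and the Gm13247 probe, from 5115 to 64244.

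Zfp534 lies 882 kb further along the same chromosome by its probe in mm9; the promoter positions below are of another build, and distances in the 2 builds differ. Its single probe went from 3950 in wild type to 10377 in the knockout, a difference of 1.39. The 2 genes are close relatives at their starts. The promoters below are shown because both genes were higher. Alike promoters, nearby position and probes that bind RNA of relatives cannot be told apart here. Each promoter is the 250 bases before the annotated start of transcription, 5′ to 3′, from RefSeq (GRCm38.p6). Zfp600 is at chr4:146156577-146156826 on the plus strand and Zfp534 at chr4:147702632-147702881 on the minus strand. Capitals mark the 28 bases that both share as their longest common run.
Zfp600: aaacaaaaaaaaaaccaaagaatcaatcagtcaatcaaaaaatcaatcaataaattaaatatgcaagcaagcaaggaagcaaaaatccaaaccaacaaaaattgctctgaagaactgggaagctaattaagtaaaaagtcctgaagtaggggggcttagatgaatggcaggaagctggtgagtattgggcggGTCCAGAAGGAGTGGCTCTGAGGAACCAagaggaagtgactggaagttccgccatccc
Zfp534: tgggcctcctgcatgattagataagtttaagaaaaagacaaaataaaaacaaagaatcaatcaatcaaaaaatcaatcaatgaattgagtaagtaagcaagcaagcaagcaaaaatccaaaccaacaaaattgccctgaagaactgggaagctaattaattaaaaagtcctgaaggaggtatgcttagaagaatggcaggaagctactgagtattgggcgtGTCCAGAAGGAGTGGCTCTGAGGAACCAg

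The capitalised run was found in 7 of the 27025 RefSeq promoters searched, all on chromosome 4. The 5 of these genes measured on both arrays had differences from 1.39 to 3.67. They include Zfp600 and Zfp534, from which the run was taken because both were higher, so these 2 add nothing. The others were Rex2 (3.67), Zfp987 (2.58) and Zfp985 (2.06). The 250-base promoter of Zfp600 was at least 60% identical, by edit distance, to those of 10 other genes (65.6% to 99.2%), all on chromosome 4; the next was 54.8% identical. Of these 10, 8 were measured, and 8 of 8 were at least 2-fold higher. Their probes could bind RNA of relatives, so the 8 are not separate observations. Rex2 was the most alike at 99.2%, with a signal that went from 5007 in wild type to 63762 in the knockout. The limit of 60% was set after the gap was seen.

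Around Zfp600 the differences extended over a stretch of the chromosome. From Gm13212 to Gm13157 (chr4:145214238-147181283, mm9, 1967 kb), 27 genes were measured, of which 17 were at least 2-fold higher and 0 were lower on the knockout array, with a median of 1.69. The backgrounds over all genes are 11.5% higher and 8.81% lower. The bounds of the stretch were placed after its values were seen, and both end genes are past 2-fold (2.22 and 1.71). Zfp600 and Zfp534, described because they were higher, are among the 27. The count is thus raised by how the stretch was drawn. The 11 genes there that are zinc finger genes by name, Zfp600 and Zfp534 included, were all at least 2-fold higher, from 1.39 to 3.67 with a median of 2.58. This held under every one of the 10 other settings tried, where their lowest difference was 1.02. Their probes could bind RNA of relatives, so the 11 are not separate observations. The 16 other genes of the stretch held 6 higher, with a median of 0.82. This split follows names only. Gm13212, at 2.22, is among the 16 although its promoter was 67.6% identical to that of Zfp600. In the 22 measured genes that followed, 4 were higher, 0 were lower and the median was 0.04. Zfp933, the first member past the end, had probes at -0.23 and 0.79 and a difference of 0.28.

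Of those neighbours, 7 are Zfp500 to Zfp999 genes by their current RefSeq symbol but carry older names on the array. The array's Gm13247 is now Zfp981 (3.65), 2610305D13Rik is Zfp979 (3.18), Gm13152 is Zfp982 (3.13) and Gm13051 is Zfp987 (2.58). Gm13154 is Zfp985 (2.06), Gm13251 is Zfp992 (1.79) and Gm13157 is Zfp984 (1.71). Across the array, updating names through RefSeq added 16 measured genes to the set and took 1 out. Of the 16 added, 9 were higher and 1 lower. With updated names 20 of 177 measured genes (11.3%) were at least 2-fold higher, against 11.5% of all genes, and 17 were lower. The names as printed on the array thus left most of the chromosome 4 genes out of the set.

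Zfp640, on chromosome 13, had the second largest positive difference. Its single probe, at chr13:66141640-66141699 (mm9), went from 312 in wild type to 3390 in the knockout, a difference of 3.44. That probe shares 25 or more bases with the probe of Gm10324, which lies 81.8 kb away and had a difference of 2.72. The signal of Zfp640 can therefore not be separated from that of this neighbour. Further neighbours were also higher, C330022B21Rik at 3.65, 2410141K09Rik at 2.65 and BC049692 at 3.75. Within 1000 kb of Zfp640, 14 genes were measured, of which 7 were higher and 0 lower, with a median of 1.03. Both counts include Zfp640 itself, on which the window was centred because it was higher, and Gm10324. The backgrounds are 11.5% higher over all genes and 10.9% over the other genes measured on chromosome 13. Zfp712, at the edge of that window, was at -0.74.

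The promoters of Zfp640 (chr13:66680804-66681053, minus strand) and of its neighbour 2410141K09Rik (chr13:66441119-66441368, minus strand) are shown because these genes were higher as well (RefSeq, GRCm38.p6). The neighbour is not a member by its name, and the same limit holds. Capitals mark the 44 bases of their longest common run.
Zfp640: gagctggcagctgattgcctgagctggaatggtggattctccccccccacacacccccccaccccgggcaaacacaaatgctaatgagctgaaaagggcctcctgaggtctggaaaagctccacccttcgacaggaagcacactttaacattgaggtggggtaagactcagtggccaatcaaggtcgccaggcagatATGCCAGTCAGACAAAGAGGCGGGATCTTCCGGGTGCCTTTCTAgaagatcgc
2410141K09Rik: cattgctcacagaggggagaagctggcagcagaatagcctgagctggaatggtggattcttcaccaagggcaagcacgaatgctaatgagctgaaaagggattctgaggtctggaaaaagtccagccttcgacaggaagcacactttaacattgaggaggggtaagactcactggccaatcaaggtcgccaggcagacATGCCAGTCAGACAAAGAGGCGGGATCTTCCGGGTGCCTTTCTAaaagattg

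The Zfp640 promoter was at least 60% identical to those of 9 other genes (62.4% to 91.6%), all on chromosome 13. Only 2 of the 9 were measured on both arrays, Gm10324 and 2410141K09Rik, and both were higher. The next in order, at 59.6%, was Zfp825, with a difference of 0.09.

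**Figure D2:**
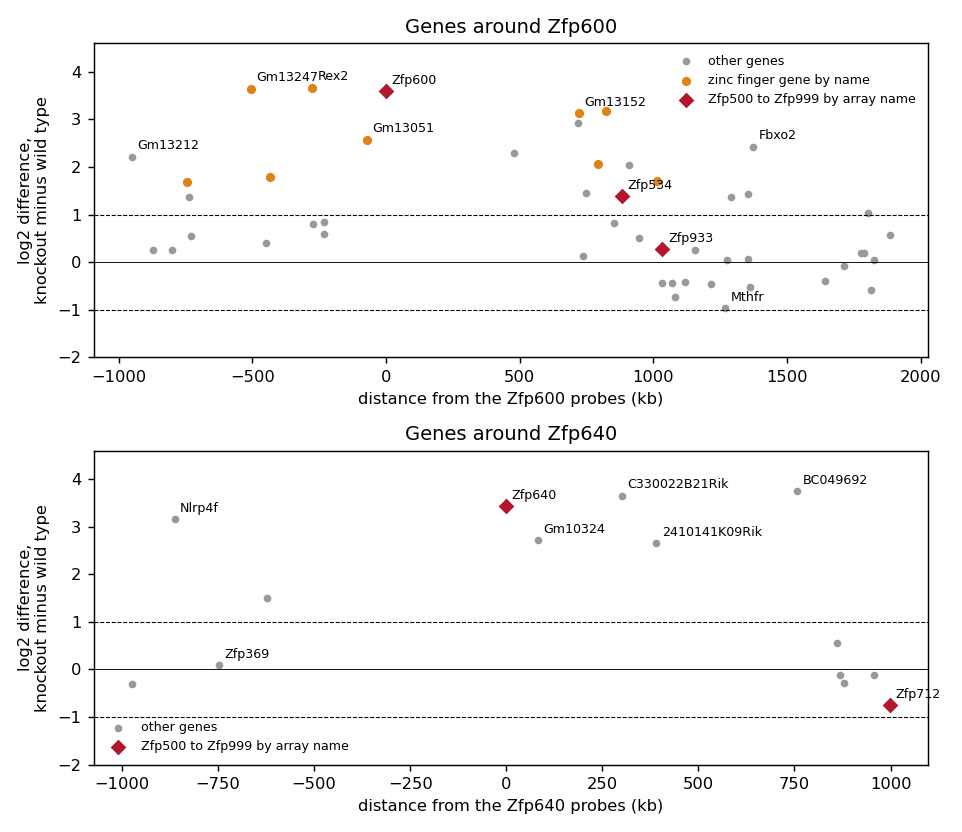
Log2 difference, knockout minus wild type (vertical axis), of each measured gene against its distance in kb from the probes of Zfp600 (top) and Zfp640 (bottom). Diamonds are genes named Zfp500 to Zfp999 on the array, orange points other zinc finger genes by name (marked in the top panel only) and grey points other genes; dashed lines mark 2-fold. The 11 named zinc finger genes within the stretch around Zfp600 sit between 1.39 and 3.67. Its bounds were placed after the values were seen. The 22 genes past the stretch have a median of 0.04, with 4 of them at least 2-fold higher. Among those past it is Zfp933, also a named zinc finger gene, at 0.28.

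Promoters could be matched for 145 of the 174 genes. The median number of CG dinucleotides in the 250 bases was 11 over these 145 and 6 over all 27025 promoters. It was 6.5 for the 10 matched members that were higher and 11.5 for the 12 that were lower. Zfp534 had 1 CG and Zfp600 had 2. The octamer ATGCAAAT, a motif bound by POU factors, was found on either strand in 0.690% of the member promoters and in 1.61% of all promoters. The letters ACAATG, the core of a SOX motif, were found in 6.90% and 10.99%. Neither was found in the promoters of the higher or lower members. These are matches of letters in one window and say nothing of binding.

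The other higher members lie apart from these stretches. Zfp819, on chromosome 7, encodes a KRAB zinc finger protein described in pluripotent cells. Its probe went from 197 in wild type to 1850.2 in the knockout, a difference of 3.23. Zfp951 is on chromosome 5. Its 2 measured probes gave 173 and 28.8 in wild type, against 812 and 99.8 in the knockout. Both were higher, by 2.23 and 1.79.

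Zfp809, on chromosome 9, encodes a KRAB protein known for binding the primer binding site of murine leukaemia viruses and silencing them in embryonic stem cells. Its 2 probes gave 202 and 209 in wild type, against 893 and 658 in the knockout. Both probes were higher, by 2.15 and 1.66, and neither shares a long run with another gene's probe. Zfp946, on chromosome 17, went from 3282 in wild type to 9905 in the knockout at its 1 measured probe, a difference of 1.59. Zfp960 went from 3383 to 7412, a difference of 1.13, and Zfp808 from 154 to 370.4, a difference of 1.26. With spike-in centring Zfp960 and Zfp808 lay within 2-fold, at 0.76 and 0.89.

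For 2 higher members the probes disagreed. Zfp936 had a probe that went from 60.3 to 572 (3.25) and another that went from 2702 to 4144 (0.62). Zfp940 had a probe that went from 30.3 to 305 (3.33) and another that went from 700.5 to 814 (0.22). In each pair 1 probe carried the large difference, so that the median, 1.93 for Zfp936 and 1.77 for Zfp940, is the value of neither. With the brightest probe alone, both genes were within 2-fold. Just short of the limit was Zfp930, which went from 5244 to 10456 (0.996).

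**Figure D3:**
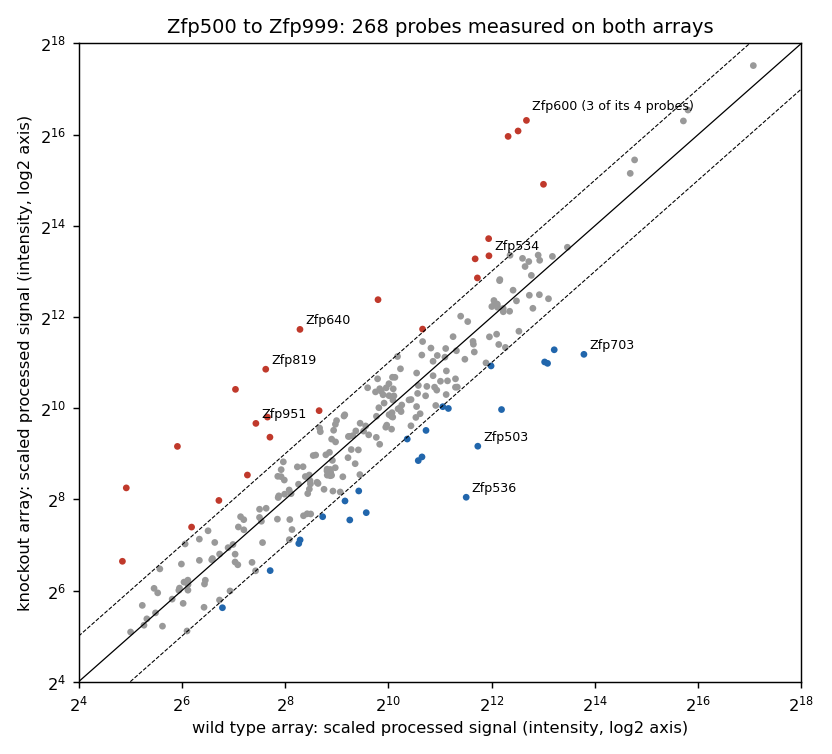
Scaled processed signal of the 268 probes of Zfp500 to Zfp999 genes measured on both arrays, wild type (horizontal) against knockout (vertical), both on log2 axes. The solid line marks equal signals and the dashed lines 2-fold; red probes are at least 2-fold higher and blue probes at least 2-fold lower on the knockout array, with Zfp600 probes far above the upper dashed line and Zfp536, Zfp503 and Zfp703 below the lower one.

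The largest negative difference was that of Zfp536. Zfp536, on chromosome 7, encodes a brain-enriched protein reported to restrain neuronal differentiation. The probe measured on both arrays gave 2910.1 for wild type and 264 for the knockout, a difference of -3.46. Of its other probes, 2 were well above background in wild type only (206 and 27.3) and 1 in neither. Zfp703 and Zfp503 are paralogs that encode co-repressors of the NET family; Zfp503, also called Nolz1, is known from the developing striatum and spinal cord. Zfp703 went from 14138 to 2320 (-2.61), and Zfp503 went from 3401 to 574 (-2.57). No gene within 500 kb of these 3 was at least 2-fold lower, among 3 measured neighbours of Zfp536, 12 of Zfp703 and 5 of Zfp503. At least 2-fold higher were 1, 4 and 1 of them. The backgrounds are 8.81% lower and 11.5% higher, so neighbours this few decide nothing.

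Zfp521, known for promoting the step of embryonic stem cells to neural progenitors, went from 1607 to 488 (-1.72). Zfp711, an X-linked relative of Zfx whose human counterpart is a gene of intellectual disability, went from 761 to 209 (-1.86). These signals moved the same way as the neural progenitor markers. Zfp579 had 2 probes, at -2.22 and -2.01, with signals of 4677 and 8343 in wild type, against 1002 and 2066 in the knockout. Both probes of Zfp629 were lower, at -1.20 and -1.93. Zfp811 went from 1529 to 461 (-1.73), Zfp938 from 688 to 291 (-1.24) and Zfp647 from 1697 to 730 (-1.22).

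For several of the remaining lower members the call rested on the setting or on 1 probe. Zfp784 went from 209 to 86.6 (-1.27) and Zfp790 from 307 to 131 (-1.23), and with normexp background correction both were within 2-fold, at -0.72 and -0.80. Zfp882, with probes at -0.91 and -1.16, was at -1.03, and it was within 2-fold under 3 of the 10 other settings. The 2 probes of Zfp618 gave -2.10 and -0.03, so its median of -1.06 is the value of neither, and with normexp it was at -0.94. Zfp768, at -1.06, and Zfp800, at -1.04, stayed past 2-fold in all 10. Just short of the limit on the lower side was Zfp563 at -0.995.

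A pair of genes, Zfp750 and Zfp641, was measured on a single array. Zfp750, which encodes a regulator of epidermal differentiation, was not well above background in wild type (14.03) and gave 120.3 in the knockout, which is at least 5.65-fold higher. Zfp641 gave 44.2 in wild type and was not well above background in the knockout (6.25), which is at least 1.45-fold lower. For these bounds the other array was given its lowest signal that was well above background, 21.3 in wild type and 30.5 in the knockout. Not well above background on either array by the same rule were Zfp526, Zfp541, Zfp572, Zfp616, Zfp735, Zfp775, Zfp831, Zfp853, Zfp872 and Zfp964.

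The 8 members described next were picked for their known roles after their values were seen. Each was within 2-fold, so they are examples and not a count. Zfp622 and Zfp706 were also named by the rule for the highest mean signals. Zfp932, which silences endogenous retroviruses, had 4 probes from 0.45 to 1.26 and a difference of 0.54. Zfp568, a KRAB repressor of a placental Igf2 transcript, was at 0.49, with probes at 0.49 and 0.50. Zfp708, which protects methylation at a class of repeats in early embryos, was at -0.07. Zfp638, a partner of the HUSH silencing complex on unintegrated retroviral DNA, was at 0.52, and Zfp644, a partner of the methyltransferases Ehmt1 and Ehmt2, at 0.10. Zfp598, a ubiquitin ligase of stalled ribosomes, was at 0.24, and Zfp622, a ribosome maturation factor, went from 26332 to 36334 (0.46). Zfp706, reported as a factor in the exit from pluripotency, went from 7806 to 9689 (0.31).

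The zinc finger repeat itself bears on how these probes read. Neighbouring fingers are joined by a linker with a nearly constant sequence, and a probe placed on it can bind RNA of many genes. The letters CANACNGGNGA, which spell part of that linker in DNA, were found on the probe's own strand in 11 of 315 member probes (3.49%) and in 80 of 56605 probes on the array (0.141%). All 11 were measured, and their differences were all positive, with a median of 0.48; the other 257 measured member probes had a median of 0.01. Of the member probes that share 25 or more bases with a probe of another gene name, 12 were measured, with a median of 0.81 and 11 positive. The median of the 256 that share none was 0.01. These splits were made after the values were seen.

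The probe of Zfp936 with the smaller difference is such a case. It is shown beside a probe of Zfp932, with the 37 bases that they share in capitals, 5′ to 3′; they lie at chr7:50445732-50445791 and chr5:110437920-110437979 (mm9, plus strand).
Zfp936: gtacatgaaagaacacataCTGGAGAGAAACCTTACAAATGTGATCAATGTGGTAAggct
Zfp932: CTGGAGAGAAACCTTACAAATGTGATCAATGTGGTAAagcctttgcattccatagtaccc

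The shared probe of Zfp932 went from 7648 to 10484 (0.45), close to the 0.62 of the shared Zfp936 probe, whereas the unshared Zfp936 probe was at 3.25. Zfp943 was the single member with probes at least 2-fold in both directions. Its probe on the linker, at chr17:22129714-22129773 (mm9, plus strand), is shown with the linker letters in capitals.
Zfp943: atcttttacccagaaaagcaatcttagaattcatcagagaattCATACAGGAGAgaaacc

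That probe went from 404 to 985 (1.29), and it shares 25 or more bases with probes of Gm13251 and 2210404O09Rik, which were at 1.79 and 1.78. The other measured probe of Zfp943, which shares no such run, went from 2126 to 1047 (-1.02). Of the 78 members with several measured probes, 10 had probes that spanned more than 1 on the log2 scale; the remaining 84 members rest on 1 probe. Among the widest were Zfp672, with 4 probes from -1.71 to 0.80, and Zfp850, with 3 probes at 0.59, 0.59 and 2.58.

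By position, members fell into 17 clusters of 3 or more genes, each less than 500 kb from the next, and 8 of the 17 were on chromosome 7. Clusters held 86 members, of which 83 were measured, with 6 higher (7.23%, background 11.5%), 8 lower (9.64%, background 8.81%) and a median of -0.05. The 79 measured members outside clusters held 5 higher and 8 lower, with a median of -0.01. Whether these counts differ was not tested, and they turn on the names. Zfp600 and Zfp534 are not in a cluster by this rule, because the relatives between them have other names on the array; with a gap of 1000 kb they form one with Zfp933. With names updated through RefSeq there were 20 clusters, whose 99 measured members held 17 higher and 9 lower. The 78 outside held 3 higher and 8 lower. Under these names the backgrounds were again 11.5% higher and 8.81% lower. The update added 7 genes of the chromosome 4 stretch, and all 7 were higher. Whether lying in a cluster goes with these counts was not tested.

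Cluster medians ran from -0.75 to 0.96. The highest was that of Zfp808, Zfp935 and Zfp934 on chromosome 13, at 1.26, 0.37 and 0.96. In the cluster from Zfp936 to Zfp819 on chromosome 7 the median was 0.68, with Zfp819 highest at 3.23 and Zfp719 lowest at -0.18. The lowest median belonged to the 6 genes from Zfp628 to Zfp580 on chromosome 7, where Zfp579 was lowest at -2.12 and Zfp628, which went from 137487 to 187076, highest at 0.44. In the 10 genes from Zfp553 to Zfp646, also on chromosome 7, the median was -0.31, with Zfp629 at -1.56 and Zfp747 at 0.21.

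Most clusters held differences of both signs. Zfp790 and Zfp940, side by side on chromosome 7, were at -1.23 and 1.77, which made theirs the single cluster with members past 2-fold in both directions. That call is lost with the brightest probe or the stricter filter on dim probes, where Zfp940 is at 0.22, and with normexp, where Zfp790 is at -0.80. On chromosome 9, Zfp809 at 1.90 lay in a cluster with Zfp810 at -0.91, and on chromosome 17, Zfp946 at 1.59 lay in a cluster of 10 with Zfp760 at -0.55. On chromosome 8, Zfp930 at 0.996 lay in a cluster with Zfp868 at -0.88, and Zfp961 at 0.79 in another with Zfp882 at -1.03. Altogether 5 clusters spanned more than 2 on the log2 scale, while 7 had no member past 2-fold and 3 had members of 1 sign only.

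The remaining clusters gave smaller ranges or 1 lower member. On chromosome 17, Zfp811 at -1.73 and Zfp870 at 0.14 were the extremes of 7 genes. On chromosome 10, Zfp938 at -1.24 and Zfp781 at 0.26 were the extremes of 3, and on chromosome 13, Zfp712 at -0.74 and Zfp953 at 0.90 those of 6. On chromosome 6, the 5 genes from Zfp786 to Zfp746 ran from -0.97 at Zfp786 to 0.14 at Zfp783. On chromosome 7, Zfp787 and Zfp583 bounded 3 genes at 0.19 and 0.11, Zfp772 and Zfp954 bounded 3 at 0.19 and 0.02, Zfp850 and Zfp626 bounded 3 at 0.59 and -0.22, and Zfp575 and Zfp574 stood at 0.13 and -0.22.

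**Figure D4:**
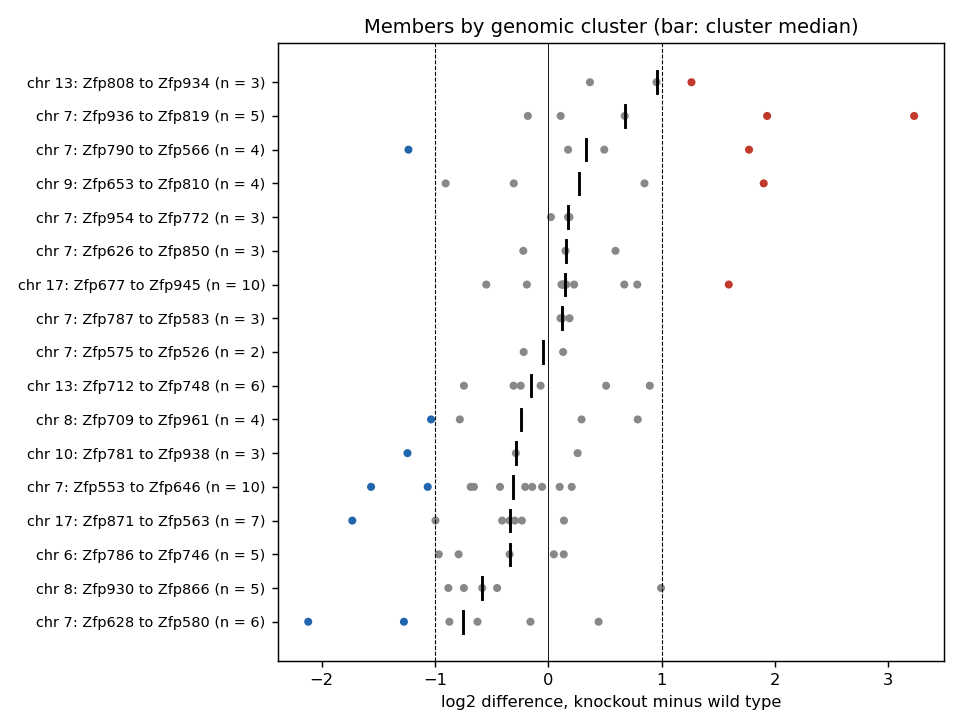
Log2 difference, knockout minus wild type (horizontal axis), of each measured member in the 17 clusters (rows, labelled by chromosome and end genes, ordered by median). Points are genes, red at least 2-fold higher and blue at least 2-fold lower on the knockout array, black bars are cluster medians and dashed lines mark 2-fold. Most clusters straddle 0, and medians run from -0.75 to 0.96.

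Genes that are not members but lie within 500 kb of one were counted as well. Around the 11 higher members there were 144 such genes, of which 37 (25.7%) were at least 2-fold higher and 6 lower. Without the surroundings of Zfp600, Zfp534 and Zfp640 there were 110, of which 20 (18.2%) were higher. Around the 16 lower members there were 234, of which 27 (11.5%) were higher and 13 (5.56%) lower, beside backgrounds of 11.5% and 8.81%. Around the 135 members within 2-fold, 13.1% of 2469 neighbours were higher and 7.05% lower. That count is per member, so a gene near several members enters more than once. Whether these shares differ was not tested. Over the whole of chromosome 7, which holds 49 members, 3 of 47 measured were higher and 6 lower, with a median of -0.01. Of the 1395 other genes measured there, 196 (14.05%) were higher and 102 lower. On chromosome 17, 2 of 21 were higher and 1 lower, with a median of 0.12. Of the 908 other genes measured there, 112 (12.3%) were higher and 63 lower.

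The proteins that KRAB zinc fingers work with were looked at as a list of 32 genes, all measured. At least 2-fold higher were 4 of 32 (12.5%), and 1 of 32 was lower, with a median of 0.27, beside backgrounds of 11.5% and 8.81%. The higher share is thus near that of all genes. Trim28, the co-repressor that binds the KRAB box, was at 0.59, and Setdb1, the histone H3 lysine 9 methyltransferase that it brings in, at -0.40. The higher genes were Atf7ip2 (2.33), a partner of Setdb1, Mphosph8 (1.54) and the array's Fam208a, now Tasor (1.21), both subunits of the HUSH complex, and Morc3 (1.15), a chromatin ATPase. Chd3, a helicase of the NuRD complex, was lower at -1.45, and the next lowest were the H3 lysine 9 methyltransferases Ehmt1 (-0.78), Suv39h1 (-0.69) and Ehmt2 (-0.48). With spike-in centring the list held 2 higher and 3 lower, with a median of -0.10, and with the brightest probe of each gene it held 2 higher and 1 lower.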

How the data were processed

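RNA was labelled with Cy3 in a one-colour design, per the labels. The authors deposited spot intensity values from Agilent Feature Extraction 10.7.1.1 (per the submitters' processing notes), and their processed signal is corrected for background within each array, per the file headers. Positions are on mm9 per the file headers, which also place both arrays on 1 slide and in 1 scan; array position and culture cannot be told apart from the group. Outlier and control spots were left out, spots of a probe averaged as log2, and each array centred on its 75th percentile (864 for wild type, 652 for the knockout). A probe was measured where at least a share of 0.5 of its spots was well above background and it was not saturated, on both arrays. Outputs were computed with Python 3.11.15, R 4.3.3 and limma 3.58.1, and the steps were tested on simulated data. The members and lists were chosen with earlier results of these data known. Genes were named by a rule: the 12 largest differences each way, the 6 highest mean signals, single-array bounds, the extremes of every cluster, members with probes in both directions, the 4 highest and 4 lowest pathway genes, and genes around members on chromosome 4. Of the 6 highest mean signals, Zfp622 and Zfp706 are described among the members of known role. Zfp658, at 0.68, and Zfp937, at 0.32, are given only here. Zfp563, Zfp618, Zfp672, Zfp768, Zfp800, Zfp825, Zfp934, the genes around Zfp640 and the others picked by known role were named after their values were seen. Promoter sequences and current symbols are from RefSeq tables of GRCm38.p6, which gave symbols for member probes by accession (244) or by the same symbol (71). The number of arrays limits the precision.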

Additional observations from a re-analysis of the deposited data

How the results depend on the processing

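No paired analysis was possible because each group has 1 array and the replicate number is only a name. Over the 10 other settings, the count of members at least 2-fold higher was 9 to 13 except with RefSeq names (20), and the count lower was 12 to 19 except with spike-in centring (33). Spike-in centring, which rests on 8 control probes, moved the median of members to -0.41, that of other Zfp genes to -0.50 and that of KRAB pathway genes to -0.10; the pathway median was 0.15 with quantile and 0.16 with loess normalization. These shifts follow from the centring of all genes. The median of members was positive with normexp (0.02), without a filter on dim probes (0.03) and with RefSeq names (0.04), and it is near 0 in the main setting as well. Of the 27 members past 2-fold, 18 stayed past it in every setting in which they had a value; Zfp618, Zfp784, Zfp790, Zfp808, Zfp882, Zfp936, Zfp940, Zfp946 and Zfp960 did not. Zfp946 was at 0.56 without the filter on dim probes. Of the cluster medians, 8 turned sign in some setting; a gap of 250 kb gave 15 clusters and a gap of 1000 kb 18. Probes that bind RNA of several relatives could not be resolved. A split by KRAB box was not run because no protein sequence was used here.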
